A study of Mus musculus with 6 samples.

Results

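The genes described here encode the proteasome, the protease that degrades ubiquitin-tagged proteins, together with its activators, its inhibitor and the factors that assemble it. They are the 48 protein-coding genes, of 48709 gene rows in the count table, whose GENCODE M21 symbol begins with Psma, Psmb, Psmc, Psmd, Psme, Psmf or Psmg, apart from Psmb8 and Psmb9. By textbook role they were 8 alpha and 9 beta subunits of the core, 6 ATPases and 11 non-ATPase subunits of the regulatory particle, 6 activator and inhibitor genes and 7 assembly factors. The remaining one, Psmc3ip, shares the prefix only: it encodes a factor of meiotic recombination and not a proteasome subunit. Polyadenylated RNA was sequenced from the cerebellum of C57BL/6J mice aged 40 weeks, in 3 wild-type samples and 3 samples with the SCA7 knock-in. SCA7 is spinocerebellar ataxia type 7, and the knock-in genotype pairs an Atxn7 allele of 140 glutamine codons with one of 5, so the long repeat sits in the animal's own Atxn7 gene. The libraries are of whole cerebellum, in which fewer cells of a type and less RNA per cell cannot be told apart.

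Proteasomes are built around a barrel of stacked rings. Outer rings of alpha subunits gate the entrance, and inner rings of beta subunits carry the proteolytic sites, which belong to Psmb5, Psmb6 and Psmb7. The regulatory particle binds ubiquitin chains, removes them and threads the unfolded substrate inwards with a ring of ATPases. Other caps can replace it, among them the activator formed by the products of Psme1 and Psme2, which interferon induces together with the alternative catalytic subunit Psmb10. In polyglutamine diseases the proteasome is known for its presence in neuronal inclusions.

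The libraries held between 34630391 and 49127673 counts, of which the 48 genes took between 0.388% and 0.480%. Relative to the gene means, log2 CPM (counts per 1000000 counts of the TMM-scaled library) followed the GC content of genes in a library-specific way. Spearman's rho across the 10270 genes averaging 10 CPM or more was -0.673 in wild-type replicate 1 and between -0.004 and 0.371 in the other 5 libraries. On average, markers of neurons of the brainstem were high in knock-in replicates 1 and 3: the mean log2 CPM of 6 of them was 3.30 and 2.46 there, 0.61 in the remaining knock-in library and -0.61, 0.92 and -1.81 in wild type. Defining cerebellar markers were abundant in every library, with a mean log2 CPM of at least 9.72 over 6 Purkinje cell markers and at least 8.80 over 5 granule neuron markers. Their levels moved with genotype: 4 of the 6 Purkinje cell markers and 1 of the 5 granule neuron markers were called lower in knock-in, with median log2 fold changes of -0.52 and -0.14. Of the 5 astrocyte and Bergmann glia markers 2 were called lower, with a median of -0.30. Of all tested genes 1.28% were called lower. The part of these shifts in cell markers in the proteasome values was not tested. Atxn7 itself had a log2 fold change of -0.12 ± 0.09 (SE), and its counts do not separate the alleles.

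The proteasome genes as a group differed little between the genotypes, and 1 of them, Psme1, rose in knock-in. Of the 46 genes with enough counts to be tested, 1 was called higher and 0 lower at an edgeR quasi-likelihood adjusted p at or under 0.05, against 0.629% of all 16699 tested genes called higher and 1.28% called lower. At an unadjusted p under 0.05, 6 were higher and 0 lower, against 9.81% and 8.26% of all tested genes. The first count was 12 with library size alone, 12 with the replicate number as a block, 3 without wild-type replicate 1, 3 without knock-in replicate 3 and 1 without both. The second was 1 with the block and 0 with the others. All genes called higher numbered 323 with library size alone and 1026 with the block, beside 105. They numbered 8 without wild-type replicate 1, 21 without knock-in replicate 3 and 5 without both. These numbers of all genes are at the adjusted p, and the share at the unadjusted p is not given for these settings. The proteasome counts under them therefore do not show whether these genes differ from other genes. Among the proteasome genes DESeq2 called 1 higher and 0 lower, against 2.47% and 3.12% of all tested genes. The median log2 fold change was 0.02, beside 0.01 over all tested genes, and 25 values lay above 0 and 21 below. The SD of the log2 fold changes was 0.16 over the 43 proteasome genes averaging 10 CPM or more, beside 0.20 over all genes above that level.

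With the replicate number as a block, 4 proteasome genes were called higher and 0 lower: Psme1, Psmb10, Psmd9 and Psmd3. Under that fit 2034 of all 16699 tested genes were called, 1026 of them higher and 1008 lower. Without the block 318 were called, 105 higher and 213 lower. The 95% interval of the fold change lay within 1.5-fold either way for 41 of the 46 genes, against 65.3% of all tested genes. These sets differ in precision: the median SE was 0.0926 over the 46 genes and 0.118 over all tested genes. Over all genes averaging 10 CPM or more it was 0.0966, and the share of intervals within 1.5-fold is not given at that level. In 9 of the 46 genes the groups did not overlap, 6 with every knock-in library higher and 3 with every knock-in library lower, against 12.3% and 11.5% of all tested genes. The 6 were Psme1, Psmd9, Psmb10, Psmg4, Psmd3 and Psmb5, and the 3 were Psmc1, Psme3 and Psmd2, whose log2 fold changes were between -0.09 and -0.05.

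**Figure D1:**
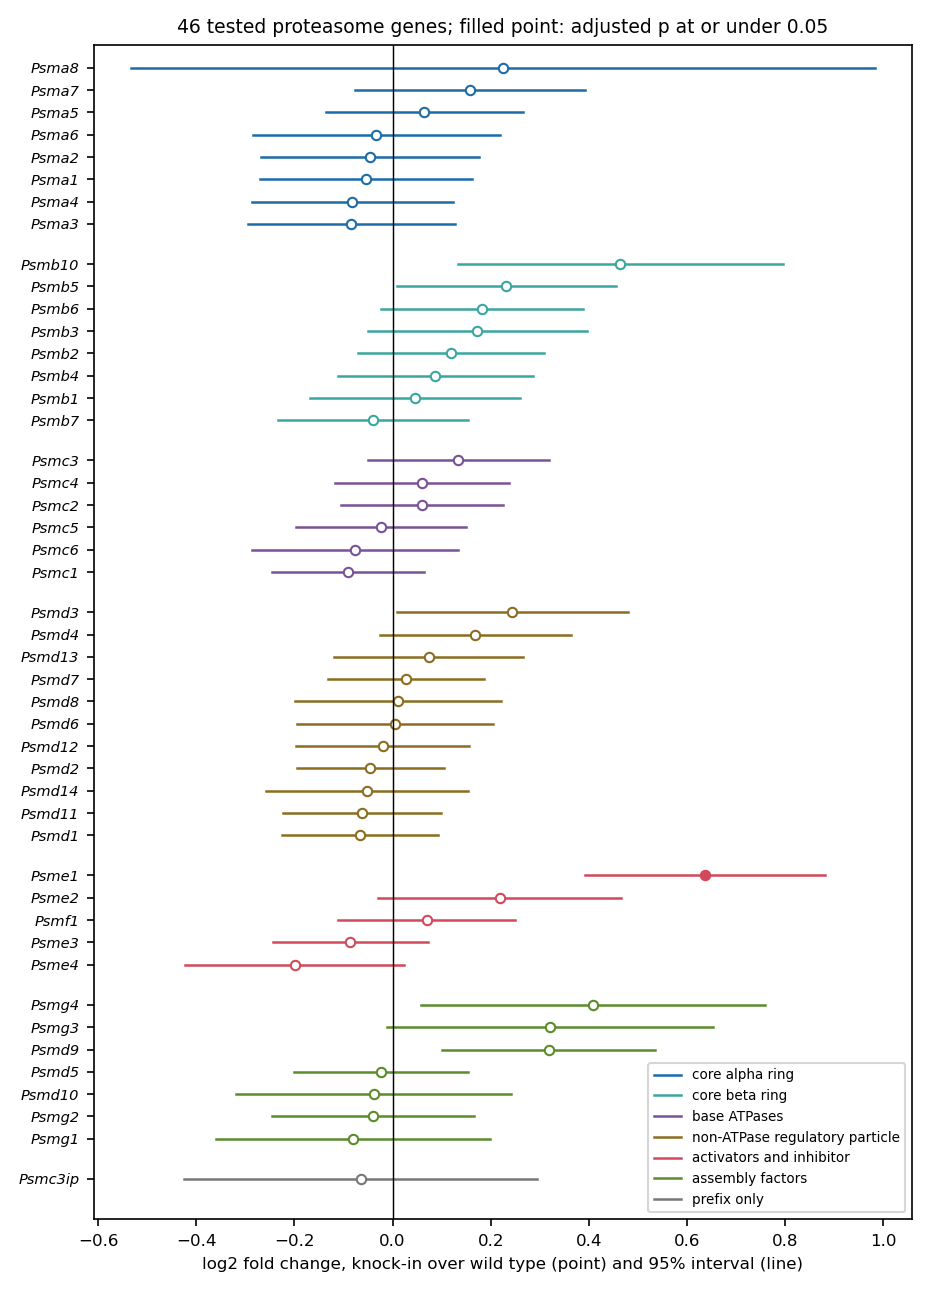
Log2 fold change of knock-in over wild type (x axis) for each of the 46 tested genes (y axis), grouped and coloured by role, with lines for the 95% interval. The only filled point, an adjusted p at or under 0.05, is Psme1 at 0.64, and most other intervals include 0.

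Among the activators, Psme1 was the member that rose. It encodes the alpha subunit of the interferon-inducible activator that opens the core without ATP. Psme1 (ENSMUSG00000022216, on the plus strand of chromosome 14 from 55578123 to 55581529 in mm10) had 17.4, 19.5 and 20.999 CPM across the wild-type libraries and, in knock-in, 31.4, 26.3 and 32.4. All 3 knock-in libraries lay above all 3 wild-type libraries. The fold change was 1.55 with a 95% interval from 1.31 to 1.84, a log2 fold change of 0.64 ± 0.11 (SE, n = 3 per genotype) at an edgeR adjusted p of 0.0221. With GC and length offsets the log2 fold change was 0.51 ± 0.08 and the edgeR adjusted p 0.00864. The call was lost when any library but knock-in replicate 2 was left out. The edgeR adjusted p was then 0.0912, 0.0736 and 0.0584 on leaving out wild-type replicate 1, 2 or 3, and 0.105 and 0.0775 on leaving out knock-in replicate 1 or 3, at log2 fold changes between 0.56 and 0.69. Leaving out knock-in replicate 2 gave 0.72 with an edgeR adjusted p of 0.00514, and leaving out wild-type replicate 1 and knock-in replicate 3 together gave 0.51 with an edgeR adjusted p of 0.217.

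Psme2, which encodes the beta subunit of the same activator and lies 5911 bases from Psme1 on the opposite strand, had 22.7, 20.7 and 20.4 CPM over the wild-type samples against 26.6, 20.96 and 26.6 in the knock-in samples. Knock-in replicate 2 was lower than wild-type replicate 1, so the groups overlapped. Its log2 fold change was 0.22 ± 0.11 (edgeR adjusted p 0.332), with a fold interval from 0.980 to 1.38. Reads of Psme2 could be split with Psme2b, a copy of 99.4% identity over 794 bases, which held 53 counts in all 6 libraries against 5537 for Psme2 and was not tested. For every 100 counts of Psme2 wild-type libraries held 76.9, 94.4 and 103 counts of Psme1, and knock-in libraries held 118, 125 and 122.

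Genes of the interferon response were also higher in knock-in. The 10 interferon-response genes were listed with earlier results of these data known. Of them 5 were called higher and 0 lower, against 0.629% and 1.28% of all tested genes. Their log2 fold changes were between 0.65 and 1.99, with a median of 1.35. Averaged over the 10 genes, log2 CPM stood at 2.97, 2.80 and 2.32 across wild-type libraries, against 4.61, 3.86 and 3.49 across those of knock-in. Within each genotype, replicate 3 had the most Psme1 and the lowest mean of the interferon genes. The 5 microglia markers had a median log2 fold change of 0.01, with 0 called. Their values ran from -0.32 for Cx3cr1 to 0.31 for C1qa, and in both of these genes the groups did not overlap. The mean log2 CPM of the 5 markers was between 4.57 and 4.83 in wild type and between 4.65 and 4.80 in knock-in. The part of the interferon response, and of the brainstem markers, in the Psme1 value was not tested.

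Promoter windows from RefSeq (GRCm38.p6, from 250 bases before to 50 after the annotated start) matched 40 of the 48 genes. The core of the interferon-stimulated response element, GAAA followed by any 2 bases and GAAA again, was searched on both strands and was found in the windows of 5 of the 40 genes (12.5%), against 3.99% of 27025 genes with a window. The 5 were Psme1, Psmg4, Psmd9, Psmb3 and Psmd4. The match in Psme1 starts 10 bases into the transcript and that in Psmg4 16 bases into it. The other 3 start 159, 163 and 80 bases before the start. The log2 fold changes of these 5 genes were between 0.17 and 0.64 with a median of 0.32. Those of the 33 tested genes without a match were between -0.20 and 0.46 with a median of -0.02. The highest of these 33 was the interferon-inducible Psmb10, whose window holds no match. Psmb3 holds it as TTTCACTTTC and Psmd4 as TTTCCATTTC, which read as the motif on the other strand. A match describes letters and is not a measured binding site. Psme2, the partner of Psme1, has windows at chr14:55590972-55591271 and chr14:55591052-55591351, and neither holds any of the 4 motifs searched. The windows of the 3 matching genes with the largest log2 fold changes are shown with the latter window of Psme2. Each is written 5′ to 3′ on the strand of the gene, with every match in capitals.
Psme1, plus strand, chr14:55578244-55578543: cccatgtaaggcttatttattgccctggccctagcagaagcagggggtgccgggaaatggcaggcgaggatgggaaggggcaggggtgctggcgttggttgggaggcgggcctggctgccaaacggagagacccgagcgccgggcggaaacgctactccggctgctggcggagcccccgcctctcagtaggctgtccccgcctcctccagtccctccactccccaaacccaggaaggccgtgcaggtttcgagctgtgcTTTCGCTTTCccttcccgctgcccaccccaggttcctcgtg
Psmg4, plus strand, chr13:34162714-34163013: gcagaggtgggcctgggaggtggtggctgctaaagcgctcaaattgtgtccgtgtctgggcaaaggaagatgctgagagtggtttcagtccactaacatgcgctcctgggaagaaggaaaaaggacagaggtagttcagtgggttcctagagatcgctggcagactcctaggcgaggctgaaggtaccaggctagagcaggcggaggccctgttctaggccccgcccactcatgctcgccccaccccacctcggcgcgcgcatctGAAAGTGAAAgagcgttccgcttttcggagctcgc
Psmd9, plus strand, chr5:123227940-123228239: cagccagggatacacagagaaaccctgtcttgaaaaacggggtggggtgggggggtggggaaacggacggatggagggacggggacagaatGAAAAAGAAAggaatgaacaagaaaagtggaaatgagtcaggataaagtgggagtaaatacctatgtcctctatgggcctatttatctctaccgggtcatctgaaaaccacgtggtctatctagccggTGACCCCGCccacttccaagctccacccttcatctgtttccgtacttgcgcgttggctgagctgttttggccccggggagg
Psme2, minus strand, chr14:55591052-55591351: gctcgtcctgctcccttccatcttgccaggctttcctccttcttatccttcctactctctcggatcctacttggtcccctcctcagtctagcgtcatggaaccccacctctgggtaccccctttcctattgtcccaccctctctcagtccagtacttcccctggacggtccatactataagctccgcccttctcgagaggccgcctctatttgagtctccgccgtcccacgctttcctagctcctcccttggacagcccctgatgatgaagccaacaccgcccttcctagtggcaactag
In Psme1 the capitals are the reverse complement of the motif, and in Psmg4 and the upstream capitals of Psmd9 the motif itself. The second run of capitals in Psmd9 is TGACNNNGC, the antioxidant response element that the transcription factors NFE2L1 and NFE2L2 bind. That element stood in the windows of 6 of 40 proteasome genes (15%), namely Psmb5, Psmb6, Psmc6, Psmd12, Psmd9 and Psme4, against 13.99% of all genes. CCAAT, bound by NF-Y, stood in 35.0% against 41.06%, and TTCNNNGAA, the gamma-activated site, in 5.0% against 9.55%. With and without a match, the median log2 fold changes were 0.08 and -0.01 for TGACNNNGC and -0.05 and 0.06 for CCAAT. For TTCNNNGAA, matched in 2 tested genes, they were -0.06 and 0.01. The part of any motif in the fold changes was not tested.

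The remaining activator and inhibitor genes did not pass the test. Psme3, whose product forms a nuclear activator ring, had wild-type values of 119, 120.1 and 115 CPM and knock-in values of 111, 114 and 108. Every knock-in library was lower, but by little: the log2 fold change was -0.09 ± 0.07 (edgeR adjusted p 0.562). Psme4, which encodes a large single-chain activator, had 85.7, 71.4 and 68.8 CPM across the wild-type libraries and, in knock-in, 66.2, 69.8 and 60.8, a log2 fold change of -0.20 ± 0.10 (edgeR adjusted p 0.325), the lowest of the 46. Wild-type replicate 1 stood highest, and the groups overlapped. Psmf1, the proteasome inhibitor gene, was at 0.07 ± 0.08 on the log2 fold change scale.

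Of the core beta subunits, none was called higher or lower in knock-in, and 7 of the 8 tested had a log2 fold change above 0, with a median of 0.15. Psmb10, the interferon-inducible subunit that replaces Psmb7 in immunoproteasomes, had 15.1, 19.6 and 21.3 CPM over the wild-type samples against 25.8, 21.5 and 29.8 in the knock-in samples. The groups did not overlap, although wild-type replicate 3 and knock-in replicate 2 nearly met. The log2 fold change was 0.46 ± 0.15 with an edgeR adjusted p of 0.150, a fold of 1.38 with an interval from 1.10 to 1.74. It was 0.47 with an edgeR adjusted p of 0.0227 under the replicate block, 0.32 without wild-type replicate 1, 0.21 without wild-type replicate 1 and knock-in replicate 3, and 0.57 with an edgeR adjusted p of 0.0458 without knock-in replicate 2. With GC and length offsets it was 0.32 (edgeR adjusted p 0.128).

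Psmb7, the constitutive counterpart, had wild-type values of 195, 171 and 186 CPM and knock-in values of 178.5, 164 and 195. These groups overlapped over most of their range, and the log2 fold change was -0.04 ± 0.09 (edgeR adjusted p 0.847). Per 100 counts of Psmb7 wild-type libraries held 7.72, 11.4 and 11.4 counts of Psmb10 and knock-in libraries 14.5, 13.1 and 15.3, means of 10.2 ± 2.15 and 14.3 ± 1.11 (SD, n = 3 each). Wild-type replicate 1 had the lowest proportion. Psmb10 has a GC content of 56.5% and Psmb7 of 40.8%, and the part of the library GC trends in this proportion was not tested. Psmb5 and Psmb6, the other subunits with proteolytic sites, had log2 fold changes above 0 without passing the test. So did the beta subunits without such sites: Psmb1, Psmb2, Psmb3 and Psmb4 were at 0.05, 0.12, 0.17 and 0.09. Psmb5, with the chymotrypsin-like site, had 57.0, 64.4 and 65.8 CPM across the wild-type libraries and, in knock-in, 70.1, 66.7 and 83.0, without overlap. Its log2 fold change of 0.23 ± 0.10 (edgeR adjusted p 0.261) became 0.05 with GC and length offsets and 0.14 without knock-in replicate 3. Psmb6, with the caspase-like site, had 116, 126 and 136 CPM over the wild-type samples against 138, 133 and 158 in the knock-in samples, a log2 fold change of 0.18 ± 0.09 (edgeR adjusted p 0.332). Psmb11, the thymus subunit, held between 2 and 7 counts per library and was not tested.

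**Figure D2:**
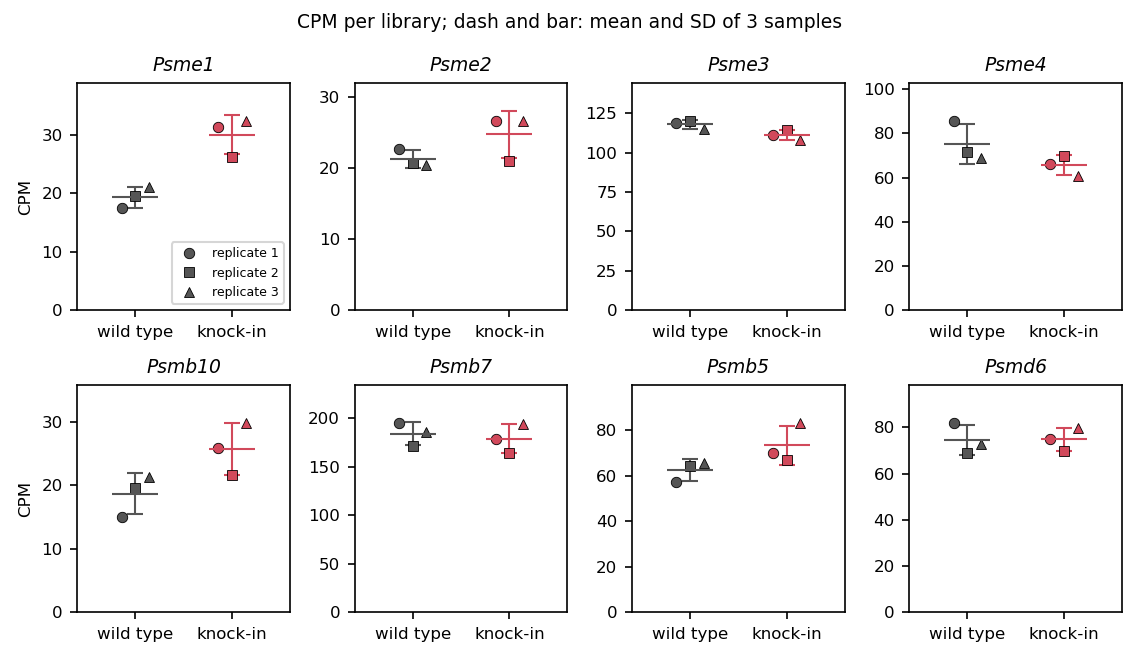
CPM (y axis, from 0) of 8 genes in each library, by genotype (x axis), with marker shapes for the replicate number and a dash and bar for the mean and SD of 3 samples. Psme1 lies between 17.4 and 20.999 CPM in wild type and between 26.3 and 32.4 CPM in knock-in, whereas the 2 groups of Psmb7 and Psmd6 overlap.

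The alpha subunits, which gate the core, had a summed CPM of 724 ± 71.0 in wild type and 718 ± 67.1 in knock-in (SD, n = 3 each). None of the 8 was called, and their median log2 fold change was -0.04, with 5 values below 0. Psma2, the most abundant by CPM, had wild-type values of 151, 125 and 137 CPM and knock-in values of 136, 119 and 145, with a log2 fold change of -0.05 ± 0.10 (edgeR adjusted p 0.849). Replicate 2 was the lowest library of both groups. Psma7 had 115, 102 and 115 CPM across the wild-type libraries and, in knock-in, 116, 110.5 and 143, where replicate 3 stood above the rest. Its log2 fold change of 0.16 ± 0.11 (edgeR adjusted p 0.468) was -0.0011 with GC and length offsets, and its GC content of 57.4% was the highest of the 46. Psma8, the testis counterpart of Psma7, had between 0.35 and 0.67 CPM in every library, or between 14 and 24 counts.

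In the base of the regulatory particle the 6 ATPase genes lay close together, with log2 fold changes between -0.09 and 0.13 and every 95% interval within 1.5-fold. Psmc5, the most abundant, had 237, 239 and 248 CPM over the wild-type samples against 233, 222 and 257 in the knock-in samples, with a log2 fold change of -0.02 ± 0.08 (edgeR adjusted p 0.900). Knock-in libraries lay on both sides of the wild-type range. Psmc3 had wild-type values of 164, 167 and 179 CPM and knock-in values of 178, 177 and 204 (log2 fold change 0.13 ± 0.08, edgeR adjusted p 0.430). The summed CPM of the 6 genes was 903 ± 24.5 in wild type and 912 ± 51.8 in knock-in (SD, n = 3 each).

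Among the 11 non-ATPase subunits of the regulatory particle, which receive and trim ubiquitin chains, none was called. The median log2 fold change was 0.00, and all 11 intervals lay within 1.5-fold. Psmd2, a scaffold subunit and the most abundant of the 48 genes by CPM, had 254, 265 and 258 CPM across the wild-type libraries and, in knock-in, 249.2, 252 and 251. The groups did not overlap, yet the log2 fold change was -0.05 ± 0.07 (edgeR adjusted p 0.768). Psmd3 had 99.5, 130.1 and 128 CPM over the wild-type samples against 134, 141 and 148 in the knock-in samples, a log2 fold change of 0.24 ± 0.11 (edgeR adjusted p 0.260). Under the replicate block it was 0.25 with an edgeR adjusted p of 0.0387. Without wild-type replicate 1 it was 0.12 (edgeR adjusted p 0.586), and without knock-in replicate 3 as well it was 0.09. Wild-type replicate 1 stood well below the other 5 libraries.

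The ubiquitin receptor gene Psmd4 had wild-type values of 98.5, 100.5 and 111 CPM and knock-in values of 113, 108 and 127, with a log2 fold change of 0.17 ± 0.09 (edgeR adjusted p 0.343). Replicate 2 of knock-in fell inside the range of wild type. Psmd14, which encodes the deubiquitinase of the lid, had 104, 87.6 and 97.8 CPM across the wild-type libraries and, in knock-in, 95.1, 85.0 and 99.3 (log2 fold change -0.05 ± 0.09, edgeR adjusted p 0.811). Its groups overlapped.

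Psmd6, another lid subunit, is the direct neighbour of the edited gene. It lies on chromosome 14 at 14112174 to 14120984 on the minus strand, and Atxn7 ends at 14107302 on the plus strand. The genes face each other across 4871 bases with 0 annotated genes between them. Psmd6 had 81.8, 69.0 and 72.8 CPM over the wild-type samples against 74.9, 69.9 and 79.6 in the knock-in samples, with the groups overlapping. The fold change was 1.003 with a 95% interval from 0.873 to 1.15 (edgeR adjusted p 0.982). Of the 48 genes 6 lie on chromosome 14, and Psmc6, Psmb5, Psmb11, Psme1 and Psme2 are between 31.22 and 41.48 Mb from Atxn7.

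Of the 7 assembly factors 3 had log2 fold changes above 0.3 without passing the test, and the other 4 lay between -0.08 and -0.02. Psmd9, a chaperone of base assembly, had wild-type values of 26.6, 30.0 and 31.2 CPM and knock-in values of 35.1, 34.2 and 40.2. No libraries overlapped between the groups, and the log2 fold change was 0.32 ± 0.10 (edgeR adjusted p 0.133). It was 0.37 with GC and length offsets (edgeR adjusted p 0.0546) and 0.32 with an edgeR adjusted p of 0.0205 under the replicate block. The noncoding gene Gm26745 covers 25.5% of the exon bases of Psmd9 on the opposite strand, and the strand setting of the counting is not given in the sources used here.

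Psmg4, part of a chaperone of alpha-ring assembly, had 4.43, 4.96 and 4.73 CPM across the wild-type libraries and, in knock-in, 5.39, 5.82 and 7.52. The groups did not overlap, and knock-in replicate 3 was the highest. Its log2 fold change was 0.41 ± 0.16 (edgeR adjusted p 0.213), 0.24 with GC and length offsets and 0.26 without knock-in replicate 3. Its partner Psmg3, named after its values were seen, had 7.31, 9.54 and 11.03 CPM over the wild-type samples against 11.8, 10.8 and 12.1 in the knock-in samples (log2 fold change 0.32 ± 0.15, edgeR adjusted p 0.293). Here the groups overlapped, and wild-type replicate 1 was the lowest. Psmd5, the most abundant assembly factor by CPM, had wild-type values of 76.5, 69.0 and 70.7 CPM and knock-in values of 73.6, 66.9 and 72.1, a log2 fold change of -0.02 ± 0.08 (edgeR adjusted p 0.906). Psmc3ip was at -0.07 ± 0.16 on the log2 fold change scale, with between 2.79 and 3.54 CPM.

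Subunits that occur in equal copies within one particle did not have equal transcript levels. Per kb of merged exons, the 31 constitutive subunit genes ranged in wild type from 11.2 CPM per kb for Psmd11 to 173 CPM per kb for Psmc5, a ratio of 15.4. Per kb of the principal transcript, a scale chosen after the data were seen, the same genes marked the ends and the ratio was 7.30. The median level was 37.1 CPM per kb of merged exons in wild type and 38.8 in knock-in. Across the 31 genes the order of the levels was nearly the same in both genotypes, with a Spearman rho of 0.976. Within roles it was 0.536 over 7 alpha and 0.964 over 7 beta subunit genes. Over the 6 ATPase genes it was 1.0, and over the 11 non-ATPase genes 0.991. Per kb of the principal transcript the alpha value was 0.964. These values are across genes, which share libraries and lengths. The interferon-inducible activator gene Psme1 lay below all of them in wild type, at 8.75 CPM per kb of merged exons, and stood at 13.6 in knock-in.

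Single libraries stood apart within both genotypes. The median deviation of the 46 genes from their means over the 6 libraries, on the log2 CPM scale, was -0.01, -0.10 and 0.01 for the wild-type libraries, against 0.00, -0.08 and 0.14 for those of knock-in. Replicate 2 was the lowest of both groups. Knock-in replicate 3 held the highest value of 25 of the 46 genes and wild-type replicate 1 that of 15, while knock-in replicate 2 held the lowest of 17. In wild-type replicate 1 the roles came apart: the alpha subunits had a median deviation of 0.18 and the beta subunits of -0.11.

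**Figure D3:**
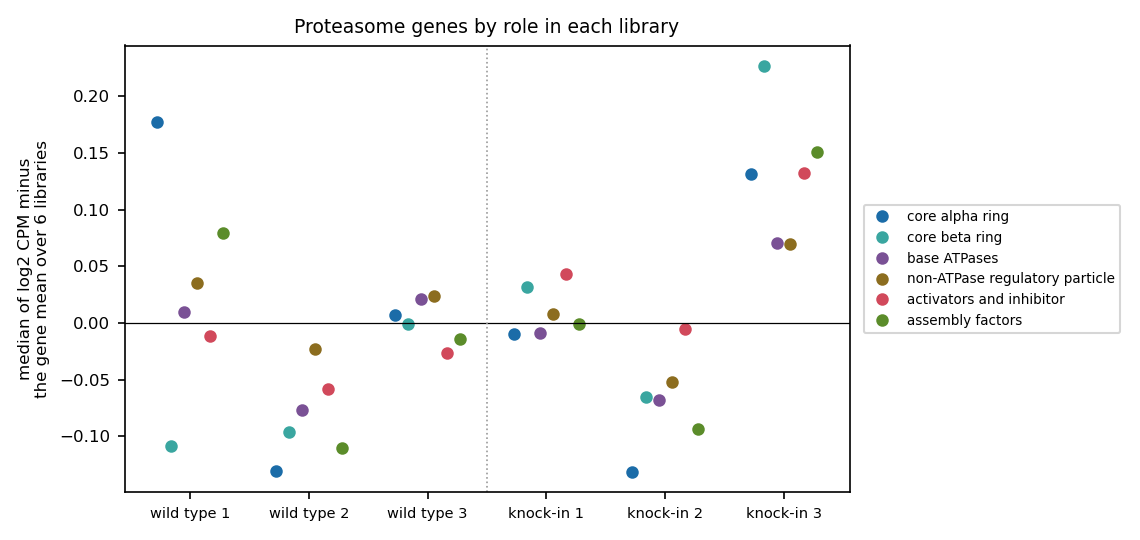
Median over the tested genes of each role of log2 CPM minus the gene's mean over 6 libraries (y axis), for each library (x axis), with points coloured by role. Alpha subunits stand at 0.18 and beta subunits at -0.11 in wild-type replicate 1, and every role stands above 0 in knock-in replicate 3.

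The fold changes of these genes followed their GC content. Across the 46 genes, which share the libraries, Spearman's rho between log2 fold change and GC content was 0.647, beside 0.405 across the 10270 genes averaging 10 CPM or more. With GC and length offsets it was 0.370, beside 0.046. The median GC content was 44.5% for the alpha subunits and 51.3% for the beta subunits, whose medians of the log2 fold change were -0.04 and 0.15. With the offsets these medians were -0.02 and 0.07. Psme1, Psmb10 and Psmb5, with GC contents of 56.2%, 56.5% and 56.6%, had log2 fold changes of 0.64, 0.46 and 0.23, and of 0.51, 0.32 and 0.05 with the offsets.

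**Figure D4:**
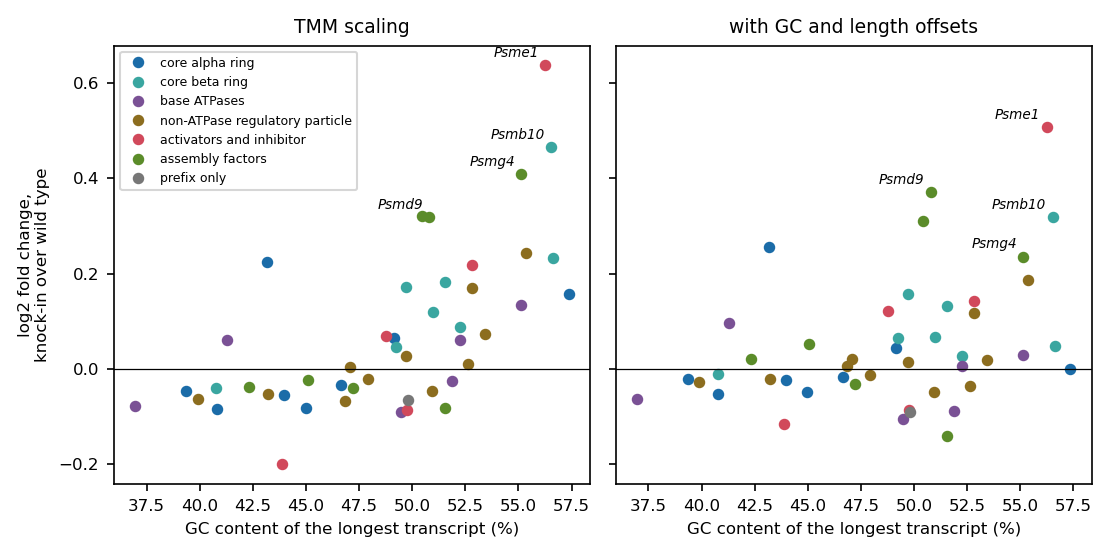
Log2 fold change of knock-in over wild type (y axis) against the GC content of the longest transcript in percent (x axis) for the 46 tested genes, with TMM scaling on the left and with GC and length offsets on the right. The rho of 0.647 on the left is 0.370 on the right, and Psme1 is the highest point in both at 0.64 and 0.51.

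The wider pathway was represented by 38 tested genes for shuttle factors, ubiquitin, enzymes bound to the proteasome and regulators of its genes. Uchl1, an abundant neuronal ubiquitin hydrolase, was the 1 called higher, and 0 were called lower, against 0.629% and 1.28% of all tested genes. At an unadjusted p under 0.05, 3 were higher and 3 lower, against 9.81% and 8.26% of all tested genes, and the median log2 fold change was -0.03. Uchl1 had 147, 184 and 205 CPM across the wild-type libraries and, in knock-in, 308, 228 and 306, with no overlap. Its log2 fold change was 0.65 ± 0.14 (edgeR adjusted p 0.0477). Its knock-in levels were highest in replicates 1 and 3, which also had the highest means of the brainstem markers. In wild type Uchl1 was highest in replicate 3, which had the lowest mean of those markers. The part of the brainstem cells was not tested. Leaving out wild-type replicate 1, 2 or 3 gave an edgeR adjusted p of 0.160, 0.103 or 0.0689, and leaving out knock-in replicate 1 or 3 gave 0.157 or 0.156, at log2 fold changes between 0.52 and 0.74. Leaving out knock-in replicate 2 gave 0.78 with an edgeR adjusted p of 0.00597, and leaving out wild-type replicate 1 and knock-in replicate 3 together gave 0.46 with 0.348. The call held with the replicate block (edgeR adjusted p 0.00477), with GC and length offsets (0.0246) and with DESeq2 (0.000407). With RLE scaling the adjusted p was 0.0544, with limma-voom 0.0544 and with a filter at 1 CPM 0.0524.

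Pomp, the maturation factor that completes the core, had 135, 118 and 126 CPM over the wild-type samples against 119.8, 112 and 129 in the knock-in samples, a log2 fold change of -0.07 ± 0.09 (edgeR adjusted p 0.707). Its groups overlapped. Nfe2l1, the transcription factor that raises proteasome genes when proteolysis fails, had wild-type values of 292, 341 and 324 CPM and knock-in values of 314, 316 and 289 (log2 fold change -0.06 ± 0.08, edgeR adjusted p 0.748). Adrm1, a ubiquitin receptor of the regulatory particle named after its values were seen, had 20.1, 27.9 and 24.6 CPM across the wild-type libraries and, in knock-in, 27.8, 34.1 and 34.6. Its log2 fold change was 0.41 ± 0.13 (edgeR adjusted p 0.149), and the groups overlapped slightly.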

How the data were processed

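RNA was sequenced from 3 wild-type and 3 knock-in samples of cerebellum, and the authors deposited raw counts of reads per Ensembl gene. Per the submitters' processing notes the tools were HTSeq 0.6.1, TopHat2 2.0.14 with Bowtie2 2.1.0, and bcl2fastq 2.17.1.14, and the build was mm10. The strand setting and annotation release were not given in the sources used here. Of the 48 genes, 10 have exons that overlap a gene on the opposite strand, and 15 have a stretch of at least 200 bases at 95% identity or more in another GENCODE M21 transcript (BLAST 2.17.0), so their counts are less certain. Libraries were of polyadenylated RNA from a stranded kit, per the labels' protocols.

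Counts were tested in R 4.3.3 with edgeR 4.0.16: filterByExpr (minimum count 10, minimum total 15), TMM, the quasi-likelihood F test on genotype alone and Benjamini-Hochberg adjustment over all 16699 genes. The SE is the absolute log2 fold change over the square root of F, and the 95% interval uses the t quantile of the fit. GC and length offsets are loess fits (span 0.5) of each library's deviations. Alternatives used DESeq2 1.42.0, limma 3.58.1, other scalings and filters, and each sample left out. The procedure was tested on simulated data, and the outcome is not given here.

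Same-numbered samples deviated together from their group means, with correlations of 0.275, 0.429 and 0.554 across genes, so the replicate number was also fitted as a block. The labels do not say what a number shares, or state that each sample is a separate animal, so the p-values reflect only the spread among the deposited samples, which may be technical. Per-sample values are given for genes called, for the most abundant, smallest-p and most-changed gene of each role, and for genes of known function set by name. Psme4, Psmf1, Psmg3 and Adrm1 were named after their values were seen. The members and lists were chosen with earlier results of these data known.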

Additional observations from a re-analysis of the deposited data

How the results depend on the processing

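The count of proteasome genes called higher was 1 in the analysis reported and 4 with the replicate block, 2 with no filter on low counts, and between 0 and 2 when 1 sample was left out. It was 0 without wild-type replicate 1 and knock-in replicate 3 together, a choice made after the data were seen. No setting run called a proteasome gene lower. Psme1 kept its direction in all 17 alternatives, between 0.51 and 0.72 on the log2 scale, and was called in 11 of them. Over all genes the number called was 318, and 513 with library size alone, 1303 with no filter, 934 with DESeq2, 948 with the likelihood ratio test, 2034 with the replicate block, 738 with GC and length offsets and 721 at an adjusted p at or under 0.1. It was between 39 and 858 with 1 sample left out and 13 without the 2 libraries above. Library size alone moved the median of all genes from 0.01 to 0.08 and split the calls as 323 higher and 190 lower, against 105 and 213.

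Some of the genes named changed sign, none of them called under any setting run. With library size alone Nfe2l1 was at 0.016, Pomp at 0.0021, Psma2 at 0.028, Psmb7 at 0.033, Psmc3ip at 0.010, Psmc5 at 0.050, Psmd14 at 0.021, Psmd2 at 0.028 and Psmd5 at 0.050. With GC and length offsets Psma7 was at -0.0011 and Psmd5 at 0.053, with no filter Psmd6 was at -0.0011, and without the 2 libraries Psma8 was at -0.050 and Psmd5 at 0.0090. With 1 sample left out the ranges were -0.116 to 0.0264 for Psma2, -0.0981 to 0.0134 for Psmb7, -0.147 to 0.0148 for Psmc3ip, -0.0803 to 0.0165 for Psmc5, -0.121 to 0.0047 for Psmd14, -0.0575 to 0.0115 for Psmd5 and -0.0519 to 0.0664 for Psmd6. The cause was not tested.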
